A study of Homo sapiens with 6 samples.

Results

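The transcripts described here encode the enzymes that build, recycle, phosphorylate or divert NAD: NAMPT, NMNAT1, NMNAT2, NMNAT3, NAPRT, NADSYN1, NMRK1, QPRT, NADK and NNMT. They were taken by symbol from the count and FPKM tables, and all 10 were found among 24305 gene symbols. RNA came from DU 145, an established castration-resistant prostate cancer line that the series design treats as deficient in homologous recombination repair. Cells were exposed for 48 h to talazoparib, an inhibitor of PARP1 and PARP2 (3 libraries), or to a control agent that the labels spell DMOS (3 libraries). All libraries share the same line, and the labels of these libraries give no dose and name no genetic change. Nothing says that replicates were separate cultures, so p-values reflect only how far these libraries differ from one another, and that spread may be technical.

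NAD carries electrons in metabolism and is also cut by PARP1 and PARP2, which use its ADP-ribose to tag proteins at DNA breaks and release nicotinamide. Talazoparib occupies the NAD site of those enzymes. Cells rebuild NAD along several routes: from nicotinamide through NAMPT, from nicotinic acid through NAPRT and NADSYN1, from nicotinamide riboside through NMRK1, and from tryptophan through QPRT. The NMNAT enzymes carry out the step that these routes share, NADK turns NAD into NADP, and NNMT methylates nicotinamide so that it leaves the cycle. Only RNA was measured here, not NAD itself or enzyme activity, and in bulk RNA fewer expressing cells and less RNA per cell cannot be told apart.

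As deposited, 4 of the 9 members with enough counts to test rose with talazoparib (NAPRT, NMNAT1, NADK and NADSYN1), by 1.22 to 1.37-fold, and 0 fell by edgeR's quasi-likelihood test (1, NAMPT, at an unadjusted p under 0.05). NAMPT was lower without passing (log2 fold change -0.35, unadjusted p = 0.0340, adjusted p = 0.0584), and DESeq2 and limma-voom each called it. Over all 14452 genes tested, 26.8% rose and 29.9% fell, 56.7% in either direction. The libraries also differed along the base composition and length of the mRNAs, and with that trend removed 3 members rose: NMRK1, NMNAT1 and NAMPT. NMNAT1 was the single member called in both fits. The share of all genes called in both was not counted. In the trend-removed fit 22% of 13717 genes rose and 22.2% fell, 44.2% in either direction.

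Composition enters the trend-removed values below, so stretches of coding sequence are shown for 5 members that passed in either fit. NAPRT, which also passed, is not shown. These short stretches do not stand for whole transcripts. Each is the middle 75 bases of the coding sequence in the longest coding transcript of GENCODE 29 (GRCh38), 5′ to 3′ on the mRNA strand, with G and C in capitals.
NMRK1: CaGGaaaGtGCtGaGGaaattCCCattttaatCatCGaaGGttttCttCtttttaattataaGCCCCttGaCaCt
NAMPT: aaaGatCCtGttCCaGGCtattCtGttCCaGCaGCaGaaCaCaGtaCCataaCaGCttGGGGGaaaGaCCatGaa
NMNAT1: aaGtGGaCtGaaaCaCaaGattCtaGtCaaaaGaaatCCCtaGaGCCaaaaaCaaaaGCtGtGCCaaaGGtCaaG
NADK: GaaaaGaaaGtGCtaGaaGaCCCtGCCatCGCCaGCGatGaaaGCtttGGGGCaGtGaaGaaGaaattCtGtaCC
NADSYN1: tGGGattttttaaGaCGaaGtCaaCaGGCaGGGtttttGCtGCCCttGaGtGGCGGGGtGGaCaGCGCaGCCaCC
The NMRK1 stretch lies on the minus strand in 2 exons, chr9:75069895-75069956 and chr9:75069801-75069813, and holds 27 G or C. That of NAMPT (minus strand, chr7:106268464-106268507 and chr7:106263587-106263617) holds 35, or 46.7%, against 39.5% in its whole coding sequence. The NMNAT1 stretch (plus strand, chr1:9981113-9981170 and chr1:9982301-9982317) holds 30. NADK's stretch is inside 1 exon (minus strand, chr1:1756513-1756587) with 36, fewer than its whole coding sequence would give. NADSYN1's (plus strand, chr11:71481378-71481404 and chr11:71481923-71481970) holds 42. Of the 5, only NAMPT's stretch is richer in G and C than the whole coding sequence.

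Over whole transcripts the tested members ran from the lowest to the highest decile of GC content among the genes tested. NAMPT had 36.3% GC and a coding sequence of 39.5%, and 67.9% of its 4582 bases were untranslated. NMRK1 had 42.1%, NMNAT3 44.1%, NMNAT1 46.0%, NMNAT2 48.6% and NNMT 50.9% GC. NADK had 56.5% with a coding sequence of 60.9%, QPRT 57.4% and NADSYN1 58.7%. NAPRT stood highest at 68.0%, and the third codon position was G or C in 82.0% of its codons, against 36.0% in NAMPT. NAMPT of the nicotinamide route and NAPRT of the nicotinic acid route therefore sit at opposite ends of this scale, with NADSYN1 between them.

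Total counts ran from 39123997 to 39585727 per library. Of 5 epithelial markers, the keratins KRT8 (534 to 652 CPM, counts scaled to library size) and KRT18 (465 to 627 CPM) were high in all 6 libraries. KRT19 stood at 39.3 to 46.9 CPM in controls and 85.6 to 100.5 CPM with talazoparib. EPCAM reached at most 6.54 CPM and CDH1 at most 1.65 CPM. Of 4 leukocyte markers in the table, PTPRC and CD3E had 0 counts in each library. That allows up to 3 counts, or 0.0767 CPM by the unadjusted total of the smallest library. CD14 stood at 0.827 to 1.02 CPM in controls and 1.46 to 2.21 CPM with talazoparib. Of 4 fibroblast markers DCN and LUM had 0 counts, and COL1A1 stood at 2.49 to 2.63 and 2.08 to 3.05 CPM. The part of these markers in the results was not tested. Control replicate 1 stood apart from control replicates 2 and 3 over all genes (chi-square per degree of freedom 24.4 and 18.4, against 4.85 between those 2), and talazoparib replicates 2 and 3 were further apart still (28.2).

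Per length, NNMT was the most abundant member in control cells at 51.5 ± 3.23 FPKM (SD, n = 3), followed by NAPRT at 41.2 ± 3.76 and NAMPT at 23.6 ± 3.11 FPKM. NADK (15.7 ± 0.721 FPKM) and NADSYN1 (15.3 ± 0.738 FPKM) overlapped each other. NMNAT1 (2.30 ± 0.1202 FPKM) and NMRK1 (2.19 ± 0.297 FPKM) also overlapped, while NMNAT3 (0.627 ± 0.0303), NMNAT2 (0.279 ± 0.0636) and QPRT (0.0231 ± 0.0151 FPKM) followed without overlap. With talazoparib NNMT and NAPRT overlapped, and NAMPT, at 13.3 to 22.4 FPKM, spanned the ranges of both NADK and NADSYN1, so that these 3 were not separated. FPKM rests on the deposited gene lengths: for NMRK1 (5708 nt) and NMNAT1 (4763 nt) these exceed all exon bases that GENCODE 29 gives (3865 and 4610 nt). The deposited lengths also entered the trend removal.

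**Figure D1:**
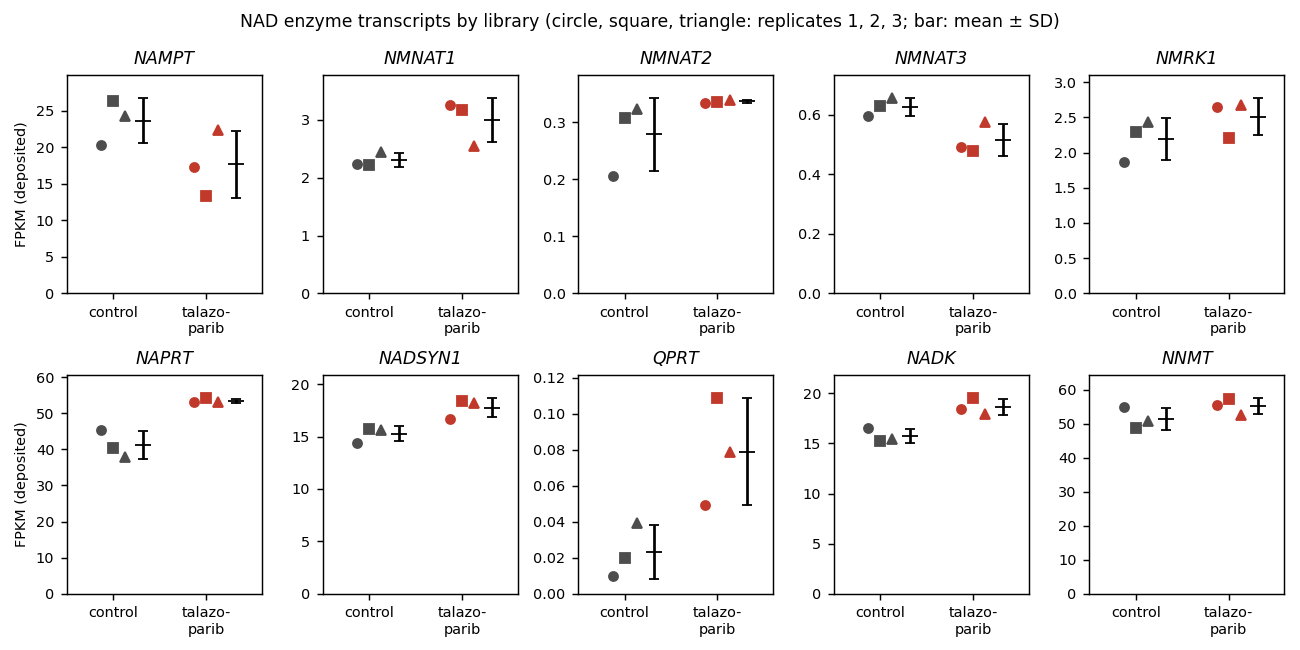
Deposited FPKM of each NAD enzyme in every library (y axis from 0, a scale of its own in each panel), with controls in grey and talazoparib in red; black bars are the mean ± SD of 3 libraries. NAPRT, NADSYN1, NADK, NMNAT1, NMNAT2 and QPRT sit higher in all talazoparib libraries than in any control, NMNAT3 sits lower, and NAMPT, NMRK1 and NNMT overlap.

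Nicotinamide route. NAMPT (chromosome 7, 106248285 to 106286326, minus strand), the rate-limiting enzyme of nicotinamide salvage, had 88.7, 109 and 103 CPM in control replicates 1 to 3, and 77.7, 60.8 and 97.6 CPM with talazoparib. The groups overlapped because talazoparib replicate 3 lay above control replicate 1. The mean went from 100.3 ± 10.6 to 78.7 ± 18.4 CPM (SD, n = 3), a log2 fold change of -0.35 with a 95% interval of -0.67 to -0.03 (edgeR adjusted p = 0.0584). Without talazoparib replicate 3 the fall passed (-0.53, edgeR adjusted p = 0.00295), and without talazoparib replicate 2 it shrank to -0.19 (adjusted p = 0.160).

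NAMPT also held the lowest GC content of the members, in the decile of genes where the median log2 fold change was -0.73, 66.0% fell and 1.17% rose. The part of each library's level that followed GC content and length was 0.21, 0.44 and 0.33 (log2) for NAMPT in controls and -0.30, -0.66 and -0.03 with talazoparib. Once it was subtracted, NAMPT stood at 76.7, 80.6 and 81.8 CPM in controls and 95.5, 95.9 and 99.8 CPM with talazoparib. These groups no longer overlapped, the direction was the opposite one, and the log2 fold change was 0.28 ± 0.05 (SE; edgeR adjusted p = 0.000926). That call held with each library left out in turn (0.26 to 0.30). It was lost when GC content was taken as the median over NAMPT's 4 coding transcripts, 42.6%, in place of the longest (0.19, adjusted p = 0.0791). Thus neither direction of NAMPT held in every fit. Whether the composition trend came from library preparation or from the cells was not tested.

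**Figure D2:**
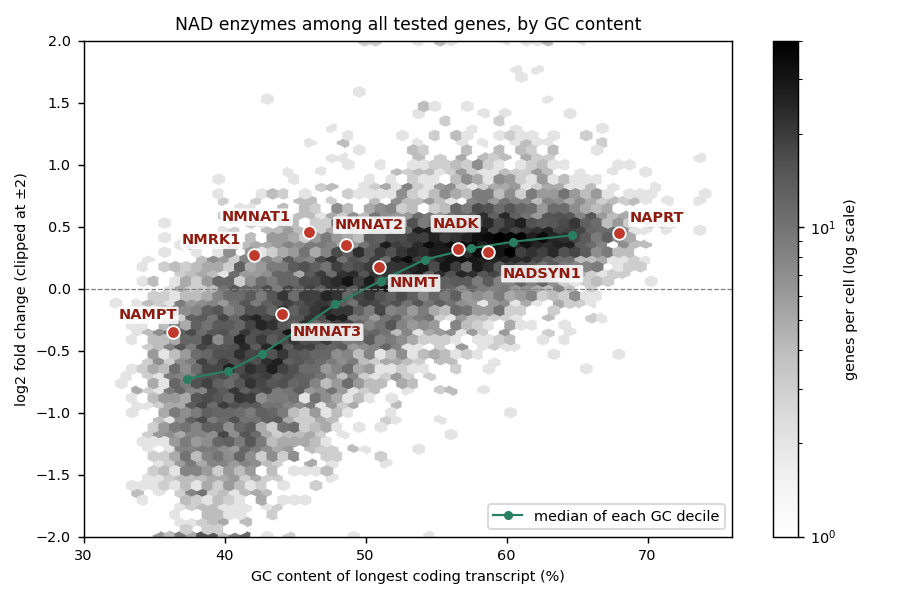
Log2 fold change of all tested genes with a GC value against the GC content of the longest coding transcript (grey cells: number of genes, log scale; values clipped at ±2), with decile medians in green and the 9 tested NAD enzymes in red. Decile medians climb from -0.73 to 0.43; NAPRT, NADK and NADSYN1 lie near the line, and NMRK1, NMNAT1, NMNAT2, NMNAT3 and NAMPT lie above it.

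Nicotinamide riboside route. NMRK1 (chromosome 9, 75060573 to 75088217, minus strand), the kinase that phosphorylates nicotinamide riboside, had 10.7, 12.5 and 13.5 CPM in controls and 15.6, 13.2 and 15.3 CPM with talazoparib. Talazoparib replicate 2 fell just below control replicate 3. As deposited, its log2 fold change of 0.27 ± 0.13 (SE) did not pass (95% interval -0.02 to 0.56, edgeR adjusted p = 0.0980), and without control replicate 1 it was 0.14 (adjusted p = 0.368). Among all genes in its GC decile, 61.6% fell and 4.16% rose, with a median log2 fold change of -0.53.

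With the trend removed, NMRK1 changed most among the members. Its levels were 9.68, 9.51 and 10.5 CPM in controls and 18.9, 18.1 and 17.4 CPM with talazoparib, 1.83-fold higher with no overlap (log2 fold change 0.87 ± 0.09, SE; edgeR adjusted p = 3.03e-05). The rise also passed with GC content alone removed (0.86), with length alone removed (0.52), with the median transcript's GC content (0.82), and with each library left out (0.84 to 0.92). The offset for NMRK1 paired the GC content of a 2050-base transcript with a deposited length of 5708 nt. How this mismatch bears on the rise was not tested.

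Nicotinic acid route. NAPRT (chromosome 8, 143574785 to 143578649, minus strand), which commits nicotinic acid to NAD synthesis, had 107, 90.8 and 86.5 CPM in controls and 129, 134 and 125 CPM with talazoparib. All talazoparib libraries were higher than all controls, and control replicate 1 was the nearest control. The rise was 1.36-fold (log2 fold change 0.45 ± 0.09, SE; edgeR adjusted p = 0.00104) and passed under all 15 alternatives without trend removal (0.35 to 0.51). In its GC decile 66.2% of genes rose and 0.875% fell, with a median of 0.43. With the trend removed NAPRT stood at 117, 115 and 106 CPM in controls and 109, 108 and 108 CPM with talazoparib. These overlapped, and the log2 fold change of -0.06 had a 95% interval of -0.17 to 0.06.

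NADSYN1 (chromosome 11, 71453109 to 71524107, plus strand), the glutamine-dependent NAD synthetase that ends this route, had 38.8, 40.1 and 40.7 CPM in controls. With talazoparib it had 46.2, 51.5 and 48.8 CPM, above every control. It rose 1.22-fold (log2 fold change 0.29 ± 0.08, SE; edgeR adjusted p = 0.00980), under all 15 alternatives without trend removal (0.20 to 0.33). In its GC decile, which NADK shares, 54.4% of genes rose and the median was 0.33. Trend-removed, NADSYN1 did not pass (-0.12, 95% interval -0.27 to 0.03); it fell in that fit without control replicate 1 (-0.18, adjusted p = 0.0418). With length alone removed it did not pass either (0.20, adjusted p = 0.0741).

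The NMNAT enzymes. NMNAT1 (chromosome 1, 9943428 to 9985501, plus strand), the nuclear enzyme that makes NAD near PARP1, had 10.7, 10.1 and 11.3 CPM in controls and 16.0, 15.9 and 12.2 CPM with talazoparib. The groups did not overlap, though talazoparib replicate 3 lay close to the controls. It rose 1.37-fold (log2 fold change 0.46 ± 0.14, SE; edgeR adjusted p = 0.0129), a call lost without control replicate 2 (0.38, adjusted p = 0.0782) or talazoparib replicate 1 (0.39, adjusted p = 0.0677). In its GC decile 50.1% of genes fell and 6.71% rose. Trend-removed it had 10.3, 8.999 and 10.1 CPM in controls and 17.3, 18.1 and 13.2 CPM with talazoparib. That rise of 1.66-fold (log2 fold change 0.73 ± 0.12, SE; edgeR adjusted p = 0.000705) passed with each library left out (0.64 to 0.86). The offset for NMNAT1 likewise paired the GC content of a 3781-base transcript with a deposited length of 4763 nt. GENCODE 29 lists 5 processed pseudogenes of NMNAT1 and 3 of NAMPT, none of them in the count table, and the sources used here do not say how reads shared with them were counted. Opposite-strand genes share 786 exon bases with NAMPT, 855 and 292 with NAPRT and 80 with NMNAT3. Genes on the same strand share 436 with NMNAT1 and, in a processed pseudogene, 281 with NMNAT3. None of these is in the count table. Over the shared bases, reads of the same-strand genes cannot be told apart from those of the enzymes under any strand setting. Without a stated setting the same holds for the opposite-strand genes.

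NMNAT2 (chromosome 1, 183248237 to 183418602, minus strand), an enzyme best known from neurons, had only 48, 71 and 75 counts in controls and 78, 78 and 79 with talazoparib. The talazoparib libraries were barely above the highest control, and control replicate 1 was the low one. NMNAT2 did not pass as deposited (log2 fold change 0.35, 95% interval -0.15 to 0.85, edgeR adjusted p = 0.213), and without control replicate 1 the value was 0.15 (adjusted p = 0.580). With the trend removed it did not pass either (0.53, 0.06 to 0.99, adjusted p = 0.0628). It passed with length alone removed (0.62, adjusted p = 0.0310) and with the median transcript's GC content (0.63, adjusted p = 0.0297). The summed level of the listed neuronal markers was 52.8 to 57.0 CPM in controls and 81.3 to 98.1 CPM with talazoparib, of which TUBB3 made up 79.3 to 96.1 CPM. SYP reached at most 2.11 CPM, and CHGA and RBFOX3 at most 4 counts in a library. Their part in the NMNAT2 values was not tested.

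NMNAT3 (chromosome 3, 139560180 to 139678017, minus strand), the mitochondrial member, had 4.39, 4.40 and 4.67 CPM in controls and 3.72, 3.69 and 4.23 CPM with talazoparib. All talazoparib libraries were lower, but the log2 fold change of -0.21 did not pass (95% interval -0.56 to 0.14, edgeR adjusted p = 0.286). Trend-removed it was higher in all 3 talazoparib libraries without passing (0.37, adjusted p = 0.0549), and 0.01 with the median GC content of its 13 coding transcripts, 50.8% against 44.1% for the longest.

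**Figure D3:**
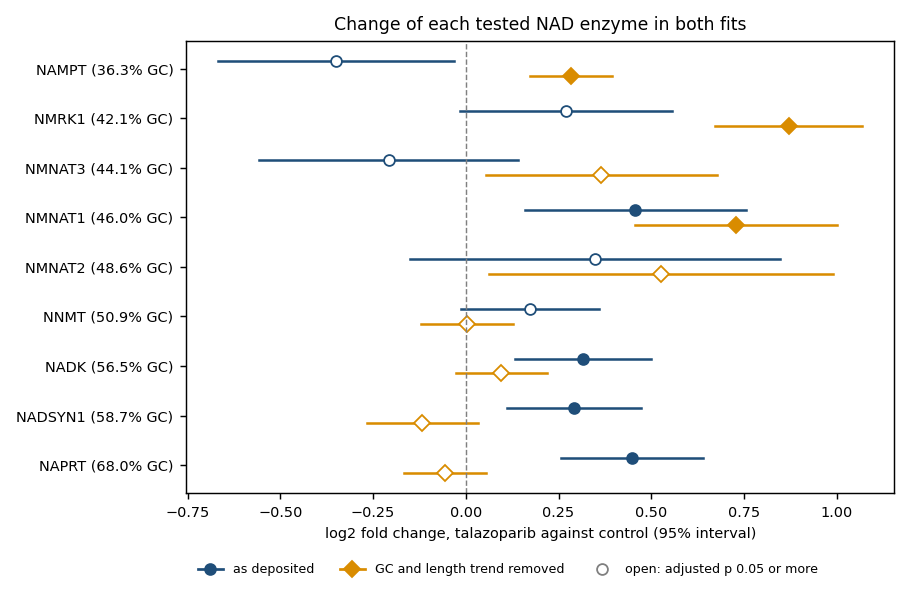
Log2 fold change (talazoparib against control) with its 95% interval for each tested NAD enzyme, ordered by GC content, as deposited (blue circles) and with the GC and length trend removed (orange diamonds); filled symbols passed an adjusted p of 0.05. NMNAT1 is filled in both fits, NADK, NADSYN1 and NAPRT only as deposited, and NAMPT and NMRK1 only trend-removed.

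The tryptophan route. QPRT (chromosome 16, 29679008 to 29698699, plus strand), which turns quinolinate into a precursor of NAD, was near the limit of detection, with 1, 2 and 4 counts in controls and 5, 11 and 8 with talazoparib. Every talazoparib library was higher, and the filter on low counts left the gene out of the test. The pooled counts of 7 and 24 give a rate ratio of 3.42 with an exact 95% interval of 1.43 to 9.39, which covers counting error only. Tested without the filter it did not pass (edgeR log2 fold change 1.79, adjusted p = 0.0972; DESeq2 adjusted p = 0.141). In GENCODE 29, 572 exon bases of QPRT are shared with another gene on the same strand.

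NADP and methylation. NADK (chromosome 1, 1751232 to 1780457, minus strand), the cytosolic NAD kinase, had 84.6, 73.7 and 76.3 CPM in controls and 96.6, 104 and 91.4 CPM with talazoparib. All talazoparib libraries were above all controls. It rose 1.25-fold (log2 fold change 0.32 ± 0.08, SE; edgeR adjusted p = 0.00671), under all 15 alternatives without trend removal (0.23 to 0.36). Trend-removed it did not pass (0.10, 95% interval -0.03 to 0.22), but it did with length alone removed (0.50).

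NNMT (chromosome 11, 114257787 to 114313285, plus strand), which uses the methyl donor S-adenosylmethionine to methylate nicotinamide, had 126, 106 and 112 CPM in controls and 131, 137 and 120 CPM with talazoparib. Control replicate 1 lay above talazoparib replicate 3. The log2 fold change of 0.17 did not pass (95% interval -0.01 to 0.36, edgeR adjusted p = 0.104), though it did without control replicate 1 (0.21, adjusted p = 0.0242) or talazoparib replicate 3 (0.22, adjusted p = 0.0480). Without control replicate 2 it was 0.0837 (adjusted p = 0.438). Trend-removed it was 0.00284 with an interval of -0.12 to 0.13.

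Of the 9 tested members, 5 were higher in every talazoparib library than in any control and 1 was lower. Over all tested genes 31.6% were higher and 32.8% lower in that way, 64.4% together. The members' median log2 fold change was 0.29 as deposited and 0.28 trend-removed, against 0.0015 and -0.0033 over all genes tested. With the trend removed, 5 members were higher in every talazoparib library (NAMPT, NMRK1, NMNAT1, NMNAT2 and NMNAT3) and 4 overlapped. Over all genes in that fit 26.5% were higher and 27.7% lower without overlap, 54.2% together. The 3 calls lost on trend removal (NAPRT, NADSYN1 and NADK) were those of the tested members with over 56% GC.

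**Figure D4:**
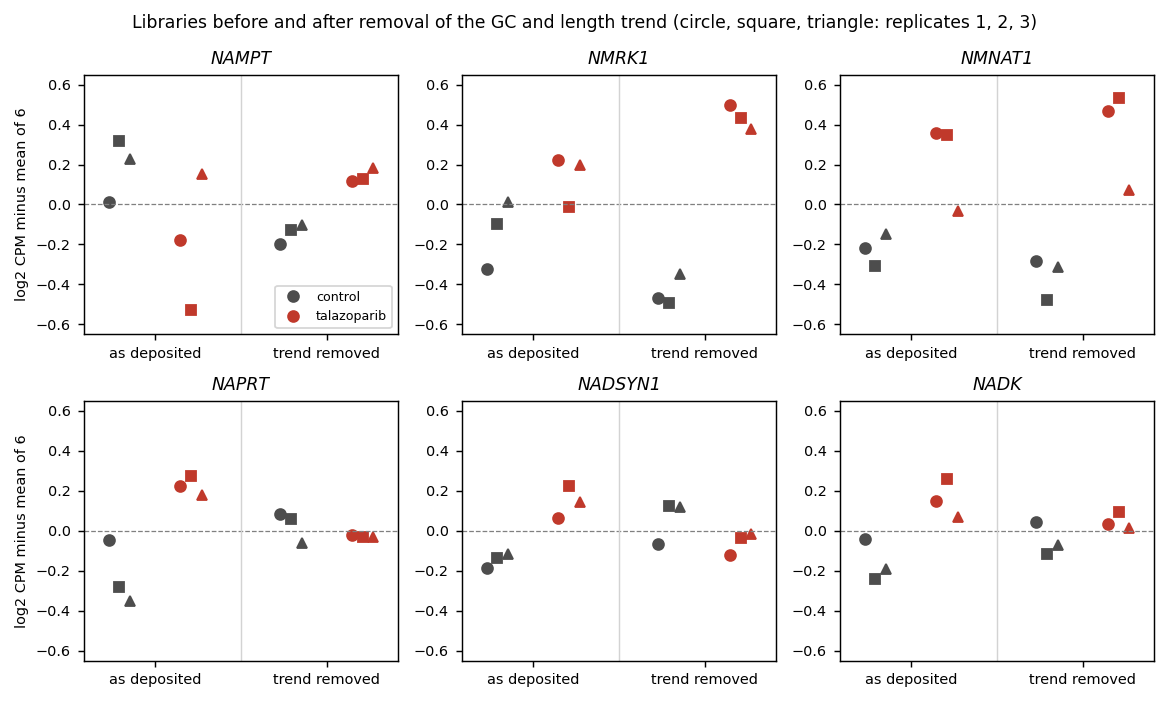
Log2 CPM of each library minus the mean of the 6 libraries for 6 NAD enzymes, as deposited (left in each panel) and after the GC and length trend was subtracted (right), with controls in grey and talazoparib in red. After subtraction the NAMPT libraries draw together within each group and the groups separate in the other direction. The overlapping groups of NMRK1 become separate, those of NMNAT1 separate further, and those of NAPRT, NADSYN1 and NADK come to overlap.

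Ratios within a library do not depend on library scaling. NAMPT stood at 0.447, 0.651 and 0.642 times NAPRT (FPKM) in control replicates 1 to 3, and at 0.325, 0.246 and 0.421 with talazoparib. All talazoparib libraries were lower, by 0.82 on the log2 scale on average (means -0.81 ± 0.31 and -1.63 ± 0.39, SD; exact permutation test, two-sided p = 0.10, the smallest that 3 against 3 allows). With the trend removed the ratio was instead higher, by 0.34 (exact permutation p = 0.10). NNMT stood at 2.72, 1.85 and 2.09 times NAMPT in controls and at 3.21, 4.30 and 2.35 with talazoparib, so the groups overlapped (log2 difference 0.55, exact permutation p = 0.20). Trend-removed, that difference was -0.28 (exact permutation p = 0.10).

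The genes with the most similar pattern over the 6 libraries were found for 2 members. Among 10108 genes with a mean of at least 5 CPM, the log2 CPM of NAPRT was closest to those of SLC39A3, EML3 and PYCR3 (Pearson r = 0.9992, 0.9990 and 0.9990 over 6 libraries), whose mRNAs have 58.0% to 64.0% GC against 68.0% in NAPRT. NAMPT was closest to CAMK2D, OTULIN and IRAK4 (r = 0.9980, 0.9980 and 0.9976), with 42.1% to 43.4% GC against 36.3% in NAMPT. These 6 points share libraries, depth and the composition trend, so the values are a description.

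Genes listed for the kynurenine pathway of tryptophan were expressed unevenly. Whether the supply of quinolinate to QPRT changed was not tested. Of 11 listed genes 5 were tested, of which 1 rose and 2 fell (20% and 40%), with a median log2 fold change of 0.14. Over all genes tested 26.8% rose and 29.9% fell. TDO2 and IDO2 had 0 counts in every library, IDO1 at most 1, KMO at most 2 and KYNU, the kynureninase, at most 5. The kynurenine formamidase AFMID, named after its values were seen, stood at 34.5 ± 0.966 and 37.9 ± 2.95 CPM and did not pass (0.14, edgeR adjusted p = 0.214). HAAO, also named after its values were seen, had 6 to 28 counts in controls and 12 to 24 with talazoparib. It did not pass either (0.18, edgeR adjusted p = 0.772). The aminotransferase KYAT1 rose (0.31 ± 0.10, SE), and its relatives AADAT (-0.73 ± 0.25) and KYAT3 (-0.48 ± 0.18) fell (edgeR adjusted p = 0.0173, 0.0239 and 0.0387). None of the 5 passed trend-removed (edgeR, median -0.14), where 44.2% of all genes did. Each of the 3 calls as deposited was lost without control replicate 2, talazoparib replicate 1 or talazoparib replicate 2. Those of KYAT1 and KYAT3 were also lost without control replicate 3.

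Among 7 tested genes of NAD(P) conversion, repair and mitochondrial transport, 2 rose and 4 fell (28.6% and 57.1%, median -0.28). The shares over all genes tested were 26.8% and 29.9%. Trend-removed, 2 rose and 2 fell (median -0.03), against 22% and 22.2% of all genes in that fit. NADK2, the mitochondrial NAD kinase, fell from 20.7 ± 1.89 to 11.7 ± 1.47 CPM (log2 fold change -0.82 ± 0.13, SE; edgeR adjusted p = 0.000229), opposite to the cytosolic NADK. Its mRNA has 36.5% GC, and trend-removed it did not pass (-0.16, adjusted p = 0.175). NUDT12, a hydrolase of NADH, fell from 5.21 ± 0.608 to 2.08 ± 0.731 CPM (-1.32 ± 0.24, adjusted p = 0.000559) and also trend-removed (-0.78, adjusted p = 0.00179). The epimerase NAXE, which repairs damaged NADH and NADPH, rose from 133 ± 13.5 to 183 ± 11.5 CPM (0.47 ± 0.09, adjusted p = 0.000747), and by 0.17 trend-removed (adjusted p = 0.0289).

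Genes for precursor uptake and nucleoside handling rose in 1 and fell in 2 of 9 tested (11.1% and 22.2%, median 0.06). The shares over all genes tested were 26.8% and 29.9%. Trend-removed, 4 rose and 3 fell (median 0.16), against 22% and 22.2% of all genes in that fit. The purine nucleoside phosphorylase PNP, which splits nicotinamide riboside among other nucleosides, rose (0.36 ± 0.09, SE; edgeR adjusted p = 0.00516) and kept that direction and call trend-removed (0.16, adjusted p = 0.0473). The nucleotidase NT5C2 fell as deposited (-0.31 ± 0.07, adjusted p = 0.00296) and rose trend-removed (0.34, adjusted p = 0.00149). The amino acid transporter SLC36A4 fell (-0.53 ± 0.13, adjusted p = 0.00367) and did not pass trend-removed (0.25, adjusted p = 0.0557).

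Of the 16 NAD-consuming enzymes 5 rose and 5 fell (median 0.09), 31.2% each way, near the 26.8% and 29.9% of all genes. Trend-removed, 2 rose and 1 fell (median 0.10), against 22% and 22.2% of all genes in that fit. PARP1 stood at 408 ± 3.01 and 389 ± 22.4 CPM and did not pass (-0.07, edgeR adjusted p = 0.435). PARP2 went from 61.0 ± 3.38 to 50.9 ± 3.23 CPM and passed as lower (-0.26, edgeR adjusted p = 0.0190). It no longer passed when talazoparib replicate 1 or 3 was left out, nor trend-removed (-0.07, adjusted p = 0.504). The tankyrases TNKS (-0.62 ± 0.10, SE) and TNKS2 (-0.89 ± 0.15) fell, and the nuclear sirtuin SIRT7 rose (0.55 ± 0.09), with adjusted p between 0.000189 and 0.000555. Trend-removed, TNKS rose (0.22, adjusted p = 0.0148), and TNKS2 (-0.15) and SIRT7 (0.14) did not pass.

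Around NNMT, the methyl donor cycle had 1 rise and 4 falls among 7 tested genes (14.3% and 57.1%, median -0.22). The shares over all genes tested were 26.8% and 29.9%. Trend-removed, 2 rose and 1 fell, against 22% and 22.2% of all genes in that fit, and the median was 0.07, of the opposite sign. MAT2A, which makes S-adenosylmethionine, fell from 233 ± 5.87 to 170 ± 13.7 CPM (-0.45 ± 0.08, SE; edgeR adjusted p = 0.000412), and its partner subunit MAT2B fell (-0.46 ± 0.12, adjusted p = 0.00576). AHCY, which removes the S-adenosylhomocysteine that methylation leaves, rose from 351 ± 37.2 to 469 ± 33.3 CPM (0.42 ± 0.09, adjusted p = 0.00167). Trend-removed, MAT2A still fell (-0.25, adjusted p = 0.0148), AHCY still rose (0.18, adjusted p = 0.0313) and MAT2B did not pass (0.07).

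**Figure D5:**
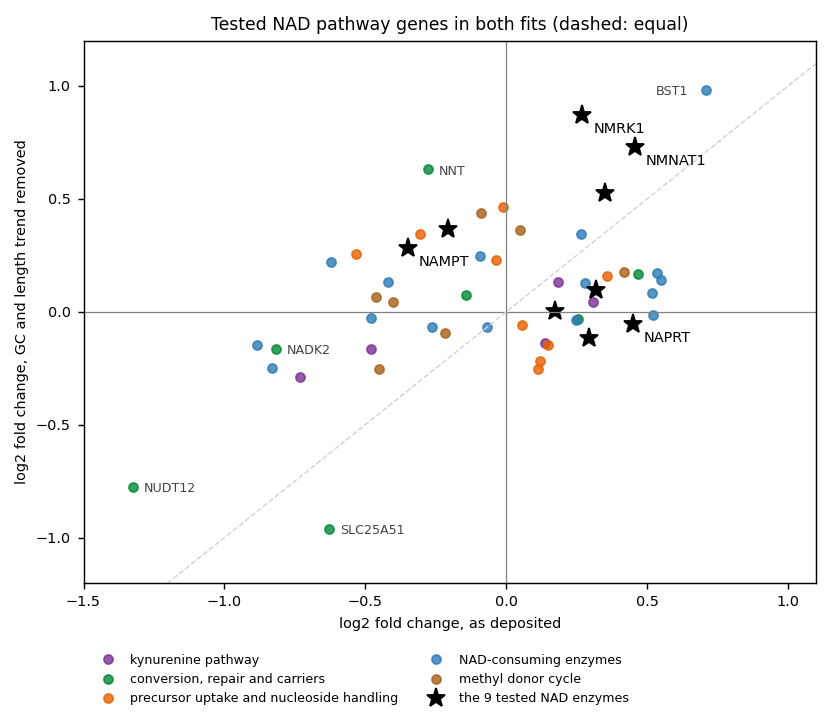
Log2 fold change as deposited (x axis) against the value with the GC and length trend removed (y axis) for tested genes of 5 NAD pathway lists (coloured points) and the 9 tested NAD enzymes (black stars); the dashed line marks equal values. NMRK1 and NMNAT1 lie above 0 on both axes, NAMPT is below 0 on one and above on the other, and NAPRT lies near 0 on the y axis.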

How the data were processed

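Total RNA of 6 DU 145 libraries was extracted with TRIzol and prepared with the VAHTS Universal V6 kit, per the labels' protocols. Build GRCh38 and the tools HTSeq, HISAT2, Cufflinks and Trimmomatic are listed per the submitters' processing notes. The sources used here do not give tool versions, the annotation or a strand setting. The authors deposited whole-number counts per gene symbol and FPKM values. Each deposited FPKM is the count over gene length and column total; the implied lengths were whole within 0.01 nt for 99.95% of 21065 genes.

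The test on the counts was that of edgeR 4.0.16, run under R 4.3.3 (filterByExpr with a minimum count of 10, TMM, robust quasi-likelihood test, group as the single term, Benjamini-Hochberg at 0.05 over all genes tested). CPM uses TMM-adjusted library sizes. Standard errors are the absolute log2 fold change over the square root of F. For the trend-removed fit, each library's deviation of log2 CPM (prior count 2) was fitted over GC content and log2 length with natural splines of 5 degrees of freedom and used as an offset; this covered 13717 genes (94.9%). The script was run on simulated counts without a trend and on counts carrying the trend fitted here. The latter was removed with the same splines, GC values and lengths, so the run cannot show whether those are right. That trend may hold a drug response as well as a technical part, and the offset removes both. DESeq2 1.42.0, limma 3.58.1 and other alternatives are given in the closing section.

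The members and lists were chosen with earlier results of these data known. Genes named: all members; up to 3 genes per list with the smallest adjusted p under 0.05; PARP1 and PARP2; and the 3 genes most like NAPRT and like NAMPT, the rising and the falling member with the smallest adjusted p.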

Additional observations from a re-analysis of the deposited data

How the results depend on the processing

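Of the 4 members that rose, NAPRT, NADSYN1 and NADK passed under all 15 alternatives without trend removal (other tools, scalings, filters, FPKM and each library left out), and NMNAT1 under 13. Over all genes, each of those 15 called between 2622 and 4128 higher. The share of all genes that passed under all 15 was not counted. With the GC and length trend removed 3 members rose, sharing only NMNAT1 with the 4 that rose as deposited. The count of members lower was 0 and became 1 (NAMPT) with DESeq2, with limma-voom, with the replicate block and without talazoparib replicate 3, so 0 to 1 over the libraries left out; with the trend removed and a library left out it was also 0 to 1 (NADSYN1, without control replicate 1). Over all genes, the trend removed together with the replicate block left 2567 higher and 2575 lower, from 3873 and 4327. The labels do not say that same-numbered libraries share a culture or day, so the numbers were not taken as pairs. Correlations of their deviations were -0.09, -0.17 and 0.0039 over 14452 genes. Those of differently numbered libraries ran from -0.11 to 0.19, so these values cannot decide whether the numbers mark pairs. The replicate block alone gave 4 members higher and 1 lower (NAMPT, -0.37, edgeR adjusted p = 0.0314). Over all genes that fit called 3419 higher and 4161 lower.

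Directions reversed as follows; trend removal with a library left out or with the median transcript's GC content was added after seeing the data. With the trend removed, NAMPT went to 0.28 (0.40 with GC alone, 0.28 with the replicate block, 0.19 with the median transcript's GC content, and 0.26, 0.29, 0.30, 0.29, 0.29 and 0.26 without control replicates 1 to 3 and talazoparib replicates 1 to 3). NMNAT3 went to 0.37 (0.23 with GC alone, 0.19 with length alone, 0.37 with the block, 0.013 with the median GC content, and in the same order of libraries left out 0.42, 0.31, 0.36, 0.42, 0.35 and 0.33). NAPRT went to -0.056 (GC alone -0.018, block -0.055, median GC content -0.051, libraries left out -0.039, -0.048, -0.11, -0.07, -0.057 and -0.058). NADSYN1 went to -0.12 (GC alone -0.059, block -0.12, median GC content -0.12, libraries left out -0.18, -0.0898, -0.091, -0.084, -0.13 and -0.14). NNMT was 0.053, -0.038, -0.014, -0.0009, -0.025 and 0.043 with the trend removed and each library left out. The log2 ratio of NAMPT to NAPRT went from -0.82 to 0.34 and that of NNMT to NAMPT from 0.55 to -0.28. The cause was not tested. Depth limits QPRT and NMNAT2, whose counts are low.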

Other observations

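Other genes of the lists, picked after their values were seen, also moved. SLC25A51, the carrier that brings NAD into mitochondria, went from 8.14 ± 2.07 to 5.26 ± 0.778 CPM (SD, n = 3; log2 fold change -0.63 ± 0.20, SE; edgeR adjusted p = 0.0178). It also fell with the trend removed (-0.96, adjusted p = 0.00393). The first of these calls was lost without control replicate 2, control replicate 3 or talazoparib replicate 3 (log2 fold change -0.86 to -0.53 over the 6 libraries left out in turn).

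BST1, an ectoenzyme that cuts NAD and its relatives outside the cell, rose from 4.61 ± 0.676 to 7.54 ± 0.605 CPM (0.71 ± 0.16, SE; edgeR adjusted p = 0.00254). It rose with each library left out (0.57 to 0.78) and with the trend removed (0.98, adjusted p = 0.000158). NNT, the mitochondrial transhydrogenase that makes NADPH from NADH, fell as deposited (-0.28, edgeR adjusted p = 0.0184; not without control replicate 2 or talazoparib replicate 2, -0.34 to -0.21 over the 6 left out) and rose with the trend removed (0.63, adjusted p = 0.000101).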
